A study of Homo sapiens with 16 samples.

Results

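The comparison covered 8 of the 16 RNA-seq libraries of a study of T47D cells, a breast cancer cell line with luminal features. All 8 came from cells labelled FAH Knockout, so the loss of FAH (fumarylacetoacetate hydrolase, which ends the breakdown of tyrosine) was shared by the groups compared. The 4 tested libraries were made after 3 days in 500 nM abemaciclib (T47D KO ABE), and the 4 libraries they were set against came from vehicle-treated knockout cells (T47D KO DMSO). The other 8 libraries, control cells with and without the drug, were used to ask where the drug effect differed by genotype. The labels do not say whether the knockout is 1 clone or a pool. They also do not say whether each library had its own culture, so the p-values reflect the variation among these libraries alone, and that may be technical. Genes entered when they reached 1 count per 1000000 assigned reads (CPM) in at least 4 of the 8 knockout libraries, which kept 15668 of 78894 features, 12474 of them protein coding.

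Abemaciclib blocks CDK4 and CDK6, the kinases that cyclin D binds and turns on when a cell commits to division. Active CDK4 and CDK6 phosphorylate the retinoblastoma protein RB1, which then lets go of the E2F factors that switch on genes of DNA synthesis. Genes of mitosis are switched on later by MYBL2, FOXM1 and the MuvB core, and when RB1 relatives hold MuvB instead the same genes are kept off. In luminal breast cancer the pathway acts downstream of the estrogen receptor, which raises cyclin D1.

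The knockout libraries held 10025310 to 11963093 assigned reads. Within either treatment the libraries correlated at 0.995 to 0.996 over log2(CPM + 1), and the first principal component carried 72.6% of their variance, with abemaciclib libraries at 23.3 to 24.1 and vehicle libraries at -23.9 to -23.1. FAH (ENSG00000103876; GRCh38 chromosome 15, plus strand, 80152490 to 80186946) was at 5.03, 5.67, 6.79 and 5.54 CPM in abemaciclib-treated knockout cells and at 6.77, 6.53, 6.27 and 7.02 CPM in vehicle-treated knockout cells. The groups overlapped, and a two-sided exact permutation test over the libraries gave p = 0.114 (smallest possible 0.0286). All 8 values lay under those of control cells, where the lowest was 22.6 CPM under the drug and 25.1 CPM under vehicle (exact p = 0.0286 for each treatment, the smallest possible). Luminal markers fitted the line. The 12 defining markers, among them ESR1, GATA3, FOXA1 and KRT8, summed to 15932 to 16187 CPM under abemaciclib and 13229 to 13629 CPM under vehicle. The highest single value was 6459 CPM under abemaciclib and 5176 CPM under vehicle. The sums therefore follow the most abundant markers and not ESR1, which averaged 78.3 and 76.1 CPM. The 6 basal markers summed to 35.1 to 38.5 against 42.2 to 46.0 CPM, the 7 mesenchymal markers to 86.8 to 94.7 against 78.6 to 86.2, the 7 leukocyte markers to 2.57 to 3.93 against 3.88 to 4.51, and the 7 HEK293-type markers to 12.8 to 15.2 against 21.2 to 23.6. PAX8 was at 0 in all 8 libraries, while KRT5 was at 0 in the abemaciclib libraries and NEFL in the vehicle libraries.

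Abemaciclib lowered the RNA of the dividing cell in FAH knockout cells by large factors. Most other changes were small, in both directions. Of 15668 genes, 4388 were called lower (28.0%) and 1780 higher (11.4%) at an adjusted p under 0.05 (limma, Benjamini-Hochberg over all genes tested). The largest changes were nearly all decreases. Log2 fold changes and counts past a fold were taken on log2(CPM + 1), where changes of low genes come out too small, while percentages and multiples of the vehicle mean are ratios of mean CPM. By that measure of log2(CPM + 1), 316 genes fell at least 2-fold, 103 at least 4-fold and 27 at least 8-fold. Only 9 genes rose at least 2-fold and none rose 4-fold. Of the 103 genes that fell at least 4-fold, 61 belonged to 8 lists of cell cycle, DNA synthesis, repair, histone and chromatin genes, and so did 20 of the 27 beyond 8-fold. The 271 genes of these 8 lists took 0.619% ± 0.00297 of all reads under abemaciclib and 1.37% ± 0.00616 under vehicle (SD, n = 4 each). In bulk RNA fewer dividing cells and less of these RNAs per cell cannot be told apart.

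The balance of small changes depended on how the libraries were scaled. With CPM as deposited the median gene changed by -0.07 (log2). Rescaling by median ratios moved that median by 0.08 and quantile normalization by 0.10. The calls were then 3142 higher and 2870 lower after rescaling, and 3586 higher and 2706 lower after quantile normalization, so the share of calls that were higher was 28.9% as deposited, 52.3% rescaled and 57.0% after quantile normalization. Under all 3 scalings 2583 genes were called lower, which is 58.9% of the lower calls, and 1751 were called higher, which is 98.4% of the higher calls. For lists of small changes the rescaled counts are therefore given beside those as deposited.

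**Figure D1:**
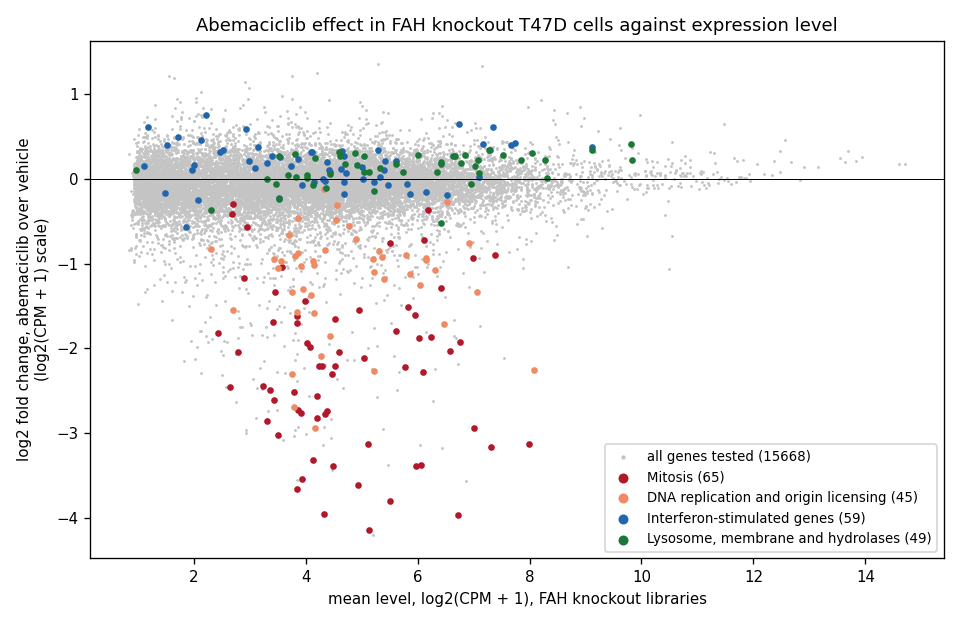
Log2 fold change of each gene (abemaciclib over vehicle, FAH knockout cells, log2(CPM + 1) scale) against its mean level in the same libraries; each point is a gene. All 65 mitosis genes lie below 0, down to -4.14, while lysosomal and interferon-stimulated genes lie mostly at small positive values.

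Genes of the drug's targets and of the RB pathway around them mostly fell. Of 28 genes of the CDK4/6-RB axis, 18 fell and 3 rose, against 28.0% lower and 11.4% higher among all genes, with a median of -0.41 against -0.07 for all genes (17 fell and 5 rose after rescaling). CCND1, which encodes cyclin D1, was at 351, 311, 309.8 and 319 CPM under abemaciclib and at 179, 182, 171 and 183 CPM under vehicle. Every treated library was above every vehicle library, and the log2 fold change was 0.85 (SE 0.0417, adjusted p = 5.9e-18). The other members that rose were CDK6, one of the drug's targets, at 9.86 ± 1.11 against 5.67 ± 0.612 CPM, and CDKN2B, whose product p15 inhibits both kinases, at 11.2 ± 0.744 against 5.81 ± 0.319 CPM (SD, n = 4 each). CCND3, the cyclin D3 gene, went the other way, at 17.4 ± 0.424 CPM against 30.7 ± 1.34 CPM under vehicle (SD, n = 4 each) with no overlap (log2 fold change -0.78, SE 0.0578, adjusted p = 3.2e-13). CDK4 fell by 0.28 and RB1 by 0.41, with no overlap between the groups for either. RBL1, which encodes the RB relative p107, fell by 1.30, whereas RBL2, which encodes p130, was at 22.6 ± 1.79 CPM under abemaciclib and 23.5 ± 1.98 CPM under vehicle and was not called.

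Genes of E2F factors and of their targets at the start of S phase fell further. E2F1, an activator, was at 12.9, 17.4, 14.7 and 14.3 CPM under abemaciclib and at 59.5, 60.7, 61.1 and 61.4 CPM under vehicle (log2 fold change -1.97, SE 0.0664, adjusted p = 1.5e-22). E2F2, also an activator, was at 16.2% of its vehicle level, and the repressors E2F7 and E2F8 were at 8.17% and 7.83%. CCNE2, a cyclin that drives entry into S phase, was at 1.65, 2.04, 2.46 and 1.91 CPM against 21.6, 24.4, 25.3 and 22.8 CPM (log2 fold change -3.03, SE 0.0911, adjusted p = 5.5e-24). The groups of all of these lay far apart. The related CCNE1 fell less, at 4.85, 4.69, 6.79 and 4.90 CPM against 9.24, 9.88, 8.78 and 8.87 CPM (-0.70, adjusted p = 4.7e-06), with 1 abemaciclib library above the other 3. CDK2, the partner of these cyclins, was at 52.7% of its vehicle level. Of the genes of kinase inhibitors, CDKN2B rose, as given above, and CDKN2C, CDKN1A and CDKN1B fell. CDKN2C, which encodes p18 and is itself an E2F target, was at 3.57, 3.63, 3.82 and 3.63 CPM against 35.5, 34.0, 34.4 and 33.6 CPM, a log2 fold change of -2.92 (adjusted p = 2.2e-26). CDKN1A, the p21 gene, was at 17.6 ± 1.25 against 43.8 ± 0.356 CPM (-1.27, adjusted p = 8.2e-19), and CDKN1B, the p27 gene, at 16.4 ± 1.07 against 22.2 ± 0.535 CPM (-0.42, adjusted p = 3.4e-06).

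**Figure D2:**
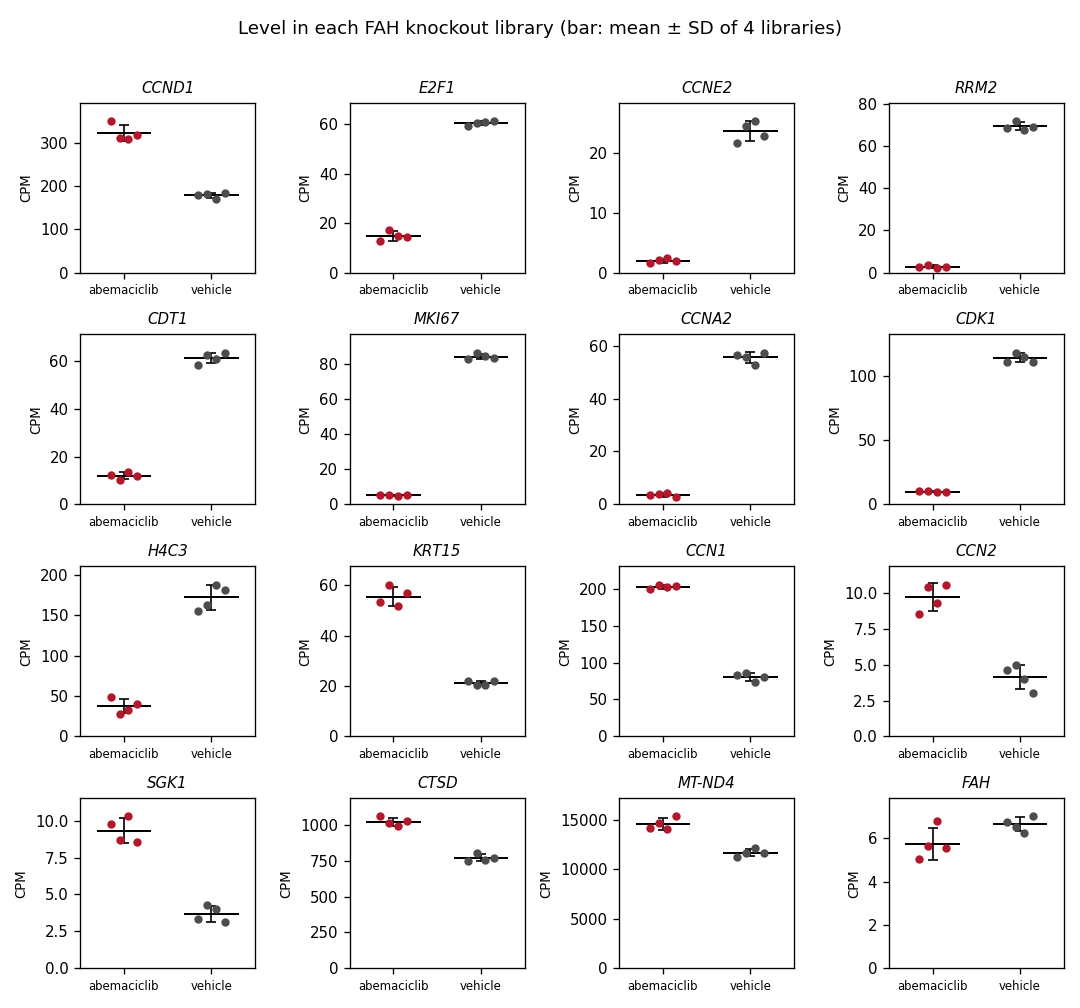
CPM of 16 genes in each of the 8 FAH knockout libraries, abemaciclib on the left and vehicle on the right; points are libraries and bars give the mean ± SD of 4. The groups are apart for all genes shown except FAH, with CCND1, KRT15, CCN1, CCN2, SGK1, CTSD and MT-ND4 higher under abemaciclib.

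Genes that copy DNA fell almost without exception. Of 45 replication and origin licensing genes, 44 were called lower and none higher, against 28.0% and 11.4% of all genes. Their median was -1.02, against -0.07 for all genes. The member not called, CHTF18, a clamp loader gene named here after its value was seen, was at 18.2 against 19.9 CPM. CDT1, which loads the MCM helicase onto origins, was at 12.2, 10.2, 13.7 and 11.7 CPM under abemaciclib and at 58.3, 62.3, 60.5 and 63.3 CPM under vehicle (-2.27, SE 0.0617, adjusted p = 3.1e-25). PCNA, the sliding clamp of the polymerases, was at 93.2, 88.4, 92.5 and 95.1 CPM against 461, 445, 446 and 426 CPM (-2.26, SE 0.0338, adjusted p = 1.1e-32). The decrease was of like size in both, although PCNA was the more abundant in reads. MCM10, an initiation factor, was at 10.3% of its vehicle level, CLSPN, an adaptor of the replication checkpoint, at 12.1%, the primase subunit PRIM1 at 16.5% of its vehicle level, and CDC45, part of the active helicase, fell by 2.09 on the log2 scale.

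The supply of DNA building blocks fell with them, in 13 of 14 genes against 28.0% of all genes, with a median of -0.97. RRM2, the regulatory subunit of ribonucleotide reductase, which makes deoxynucleotides, had the largest decrease of all 15668 genes. It was at 2.84, 3.63, 2.25 and 2.77 CPM under abemaciclib and at 68.6, 71.8, 67.7 and 69.1 CPM under vehicle, 4.14% of the vehicle mean (log2 fold change -4.19, SE 0.0718, adjusted p = 5.8e-31). The catalytic subunit RRM1 was at 36.2%. Thymidylate synthase, TYMS, was at 8.53%, thymidine kinase, TK1, at 10.6% and DUT, which clears dUTP, at 29.6% of the vehicle mean. NME2, the member not called, is a nucleoside diphosphate kinase with many other roles and was at 411 against 396 CPM; it too was picked out after its value was seen. Of the genes named in these paragraphs, CDK4, PCNA, PRIM1 and RRM2 carried fractions of a read in at least 4 of the 8 libraries, so part of their reads may be shared with other genes.

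E2F factors bind short GC-rich sites near gene starts, and 2 versions of the site, TTTCCCGC and TTTGGCGC, were looked for on both strands in the 250 bases before the RefSeq start (GRCh38.p14). Windows were found for 38 of the replication genes, and 10 of them (26.3%) held a site, against 3.18% of 9964 tested protein-coding genes and 1.93% of all 35116 promoters. Of 12 windows of nucleotide supply genes 1 held a site (8.33%). None of 26 windows of homologous recombination and Fanconi anemia genes did. The windows of the called replication genes with the largest decreases among those that hold a site are shown, with the site in capitals (in both it is read on the opposite strand). That of CDT1 lies at chr16:88803539-88803788 on the plus strand, with the site 27 bases before the start, and that of PCNA at chr20:5126623-5126872 on the minus strand, with the site 51 bases before the start.

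CDT1: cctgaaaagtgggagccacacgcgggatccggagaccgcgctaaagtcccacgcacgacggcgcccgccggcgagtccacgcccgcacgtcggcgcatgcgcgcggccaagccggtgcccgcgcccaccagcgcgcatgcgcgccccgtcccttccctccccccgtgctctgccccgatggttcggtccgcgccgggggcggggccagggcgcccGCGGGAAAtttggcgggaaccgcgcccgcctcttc
PCNA: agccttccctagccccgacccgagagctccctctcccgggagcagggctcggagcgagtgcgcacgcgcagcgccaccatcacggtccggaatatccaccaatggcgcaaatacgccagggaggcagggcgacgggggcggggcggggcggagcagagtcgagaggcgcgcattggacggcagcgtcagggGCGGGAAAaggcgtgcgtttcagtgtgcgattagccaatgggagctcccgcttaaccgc

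CDT1 was at 19.5% of its vehicle level and PCNA at 20.8%. A site is a match of letters and not evidence of binding, and a window without one says only that these letters are absent there.

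Mitosis was the most uniform of the lists. All 65 mitosis genes were called lower, against 28.0% of all genes tested, and their median was -2.20. AURKB, the kinase that corrects chromosome attachment, was at 2.38, 3.36, 2.72 and 2.63 CPM under abemaciclib and at 69.8, 61.8, 65.3 and 64.2 CPM under vehicle (-4.14, SE 0.0896, adjusted p = 5.4e-28). MKI67, the gene of the proliferation marker Ki-67, was at 5.21, 5.14, 5.01 and 5.18 CPM against 82.7, 86.4, 84.5 and 83.2 CPM (-3.80, SE 0.0573, adjusted p = 1.2e-32). In both genes the treated libraries lay close together and far below every vehicle library. MYBL2, which switches on late cell cycle genes, was at 11.8 ± 0.769 against 198 ± 5.10 CPM. The kinesin KIF20A, needed for cytokinesis, was at 3.99% of its vehicle level, the kinetochore gene SPC25 at 4.52%, the cyclin A2 gene CCNA2 at 6.65%, the spindle gene NUSAP1 at 7.32%, the mitotic kinase CDK1 at 8.77% and BIRC5, the survivin gene, at 8.91%. CCNB1, the cyclin B1 gene, kept more of its RNA, at 45.1, 43.8, 44.7 and 43.3 CPM against 168, 176, 170.2 and 168 CPM, or 26.0%. The smallest decrease of the list, singled out after its value was seen and not called after rescaling, was that of LIN9, a subunit of the MuvB core itself, at 4.85 against 6.23 CPM (log2 fold change -0.30, adjusted p = 0.0436).

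The 15 largest decreases among protein-coding genes of at least 5 CPM were, after RRM2 and AURKB, those of MYBL2, KIF20A, MKI67, SPC25, CCNA2, PCLAF, NEURL1B, CDCA3, GTSE1, NUSAP1, CDK1, BIRC5 and TYMS. PCLAF, which binds PCNA, was at 16.6, 17.2, 18.1 and 17.2 CPM against 227, 210.5, 213 and 206 CPM. NEURL1B, a ubiquitin ligase of Notch ligands, stands out for having no established part in the cell cycle. It was at 1.19, 2.04, 0.764 and 1.18 CPM under abemaciclib and at 23.7, 24.3, 27.0 and 26.5 CPM under vehicle (-3.55, SE 0.106, adjusted p = 4.7e-24). SPC25, PCLAF, NUSAP1 and BIRC5 carried fractions of a read in at least 4 libraries. Among non-coding genes the largest decreases were those of TMPO-AS1 at 9.48% and TYMSOS at 14.7% of the vehicle mean, and of MIR924HG, which fell by 1.92. TMPO-AS1 and TYMSOS lie beside TMPO and TYMS, and the strand setting of the counting is not given, so reads of each pair cannot be told apart.

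Genes of mitosis often carry the cell cycle homology region (CHR), a short element through which the MuvB core acts. Its letters, TTTGAA, were found on either strand in 27 of 57 mitosis windows (47.4%), against 8.22% of tested protein-coding genes and 13.3% of all promoters. None of the 38 replication windows held them, and 5 of the 57 mitosis windows (8.77%) held an E2F site. The windows shown are those of the mitosis genes with the largest decreases among those with the element, which is in capitals. That of MKI67 lies at chr10:128126424-128126673 on the minus strand and holds it at 41 and at 23 bases before the start. That of SPC25 lies at chr2:168890431-168890680 on the minus strand and holds it 241 bases before the start.

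MKI67: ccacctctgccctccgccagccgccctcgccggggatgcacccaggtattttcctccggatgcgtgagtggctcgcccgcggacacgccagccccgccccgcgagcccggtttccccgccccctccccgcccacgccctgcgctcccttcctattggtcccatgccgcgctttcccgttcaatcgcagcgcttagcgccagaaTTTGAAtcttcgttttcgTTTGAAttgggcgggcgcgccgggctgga
SPC25: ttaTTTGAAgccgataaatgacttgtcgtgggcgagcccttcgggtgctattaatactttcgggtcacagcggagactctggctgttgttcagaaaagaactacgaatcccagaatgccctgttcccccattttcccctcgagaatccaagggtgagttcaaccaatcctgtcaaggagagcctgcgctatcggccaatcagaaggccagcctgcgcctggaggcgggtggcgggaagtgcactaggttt

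In MKI67 the elements stand close to the start, and in SPC25 the match stands at the far end of the window. Their RNA was at 6.10% of its vehicle level for MKI67 and at 4.52% for SPC25.

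Repair, chromatin and histone genes that serve dividing cells had smaller median decreases than mitosis genes. Of 32 genes of homologous recombination and Fanconi anemia repair, 29 fell, against 28.0% of all genes, with a median of -0.99. EXO1, a nuclease that resects DNA ends, was at 9.93%, FANCI at 23.4% and the ubiquitin-conjugating enzyme UBE2T at 27.3% of the vehicle mean. RBBP8, which encodes the resection factor CtIP, was the member that rose, at 175, 162, 168 and 167 CPM against 147, 139.5, 146 and 143 CPM (0.22, adjusted p = 5.3e-05). Of 15 checkpoint genes 10 fell, led by CLSPN and PKMYT1 (16.1%), with H2AX at 22.8%, CHEK1 at 40.7% and WEE1 at 50.9%. ATM, ATR, TP53BP1, RNF8 and ETAA1 were not called. These 5 were picked out after their values were seen.

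Of 50 listed replication-dependent histone genes 23 were measured. Of these, 15 fell and none rose (median -0.45), against 28.0% lower and 11.4% higher among all genes. A filter of 5 CPM, which takes low genes out of the test, left 5 called lower. H4C3 was at 48.8, 28.2, 32.9 and 40.1 CPM under abemaciclib and at 155, 163, 188 and 181 CPM under vehicle (-2.19, adjusted p = 1.4e-19). Most histone RNAs lack a poly(A) tail, and how the libraries captured them is not given in the sources used here. Of 23 genes of DNA methylation and chromatin 20 fell (median -0.61). HMGB2, a chromatin protein of dividing cells, was at 16.1, 15.9, 16.1 and 16.8 CPM against 167, 154, 153 and 144 CPM (-3.17, adjusted p = 2.5e-30). The nuclear lamina gene LMNB1, whose loss is widely used as a sign of senescence, fell by 2.48. UHRF1, which guides DNA methylation to new strands, was at 20.9%, the remodeller HELLS at 34.9%, the Polycomb enzyme EZH2 at 42.2% and the maintenance methyltransferase DNMT1 at 44.0% of the vehicle mean. HMGB2, UHRF1 and DNMT1 carried fractions of a read in at least 4 libraries.

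DDB2, a damage recognition gene, was at 48.8% and MDM2, a ubiquitin ligase gene, at 61.8% of the vehicle mean. TP53I3, an oxidoreductase gene, was at 382, 394, 408 and 429 CPM against 619.7, 660.3, 643 and 646 CPM (-0.67, adjusted p = 3.0e-18). GDF15, a secreted stress factor induced by ATF4, rose, at 17.6, 15.9, 16.6 and 16.3 CPM against 12.2, 12.3, 8.24 and 10.4 CPM (0.59, adjusted p = 1.1e-05), and so did TP53INP1, an autophagy and cell death gene, at 151% of its vehicle level. GDF15 and TP53INP1 were apart between the groups in every library. DDB2 and TP53I3 carried fractions of a read in at least 4 libraries.

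**Figure D3:**
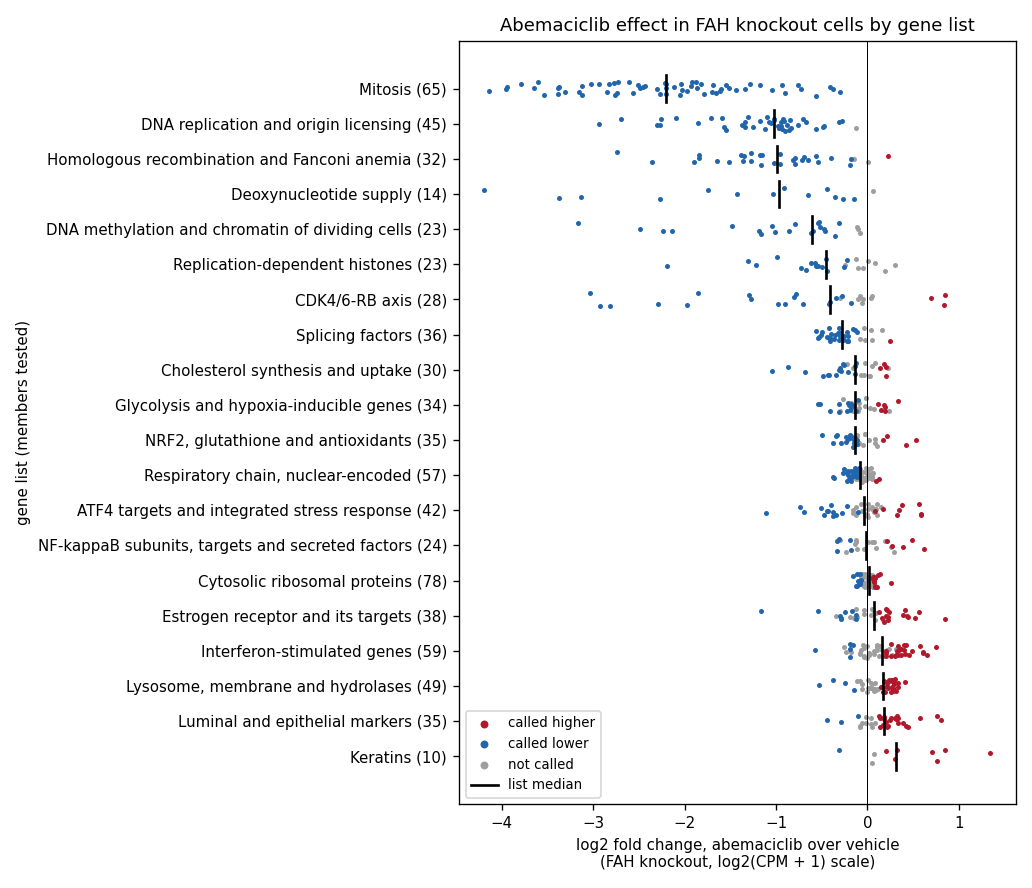
Log2 fold change (abemaciclib over vehicle, FAH knockout cells) of the measured members of 20 gene lists, ordered by median; each point is a gene, coloured by its call, and the bar is the list median. The medians run from -2.20 for mitosis to 0.31 for keratins.

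Splicing factors fell by small amounts. Of 36, 29 fell and 1 rose, against 28.0% lower and 11.4% higher among all genes, with a median of -0.28, and 25 of these decreases held under all 3 scalings. HNRNPD, an RNA-binding regulator of splicing and decay, was at 137, 149, 143 and 149.5 CPM against 216, 219, 207 and 217 CPM (-0.57, adjusted p = 4.6e-14). HNRNPA2B1, TRA2B and SRSF3, all splicing regulators, were at 68.7%, 69.3% and 70.2% of the vehicle mean. The member that rose, CLK4, a kinase of splicing factors, was at 14.5 ± 0.600 against 12.1 ± 0.945 CPM (0.24, adjusted p = 0.0326), and its adjusted p went up to 0.109 with other settings or with 1 library left out. Of 34 genes of ribosome biogenesis 13 fell and none rose. FBL, NOP58 and NCL, proteins of the nucleolus, were at 71.5%, 73.7% and 78.1%. After rescaling 7 genes of that list were called higher and 12 lower. Ribosomal protein genes gave no stable direction. Of 78, 12 were called higher and 10 lower as deposited, 46 and none after rescaling, and 7 and 25 after quantile normalization. The count called higher was 6 without abemaciclib replicate 3. Their share of all reads was 15.2% ± 0.172 under abemaciclib and 15.1% ± 0.129 under vehicle (SD, n = 4 each). RPL3 rose under all 3 scalings, by 0.26 as deposited, whereas the decrease of RPS7 by 0.15 was lost after rescaling (adjusted p = 0.149). HNRNPD, HNRNPA2B1, SRSF3, NOP58, RPL3 and RPS7 carried fractions of a read in at least 4 libraries.

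The largest increases were smaller than the largest decreases. KRT15, a keratin of basal and progenitor-type epithelium, was at 53.3, 60.3, 51.6 and 57.0 CPM under abemaciclib and at 21.8, 20.5, 20.4 and 22.0 CPM under vehicle (1.35, SE 0.0541, adjusted p = 2.0e-20), the largest increase of all genes tested. CCN1, a matrix protein gene induced by YAP, was at 199.9, 206, 202 and 204 CPM against 83.3, 85.9, 73.3 and 80.0 CPM (1.32, SE 0.0495, adjusted p = 2.7e-21). Its relative CCN2 was at 8.51, 10.4, 9.34 and 10.6 CPM against 4.60, 4.99, 4.03 and 3.05 CPM (1.06, SE 0.112, adjusted p = 1.6e-09). All 3 were raised in each treated library over each vehicle library, by factors of 2.33 to 2.62 of the means. Beside CCND1, other genes among the 15 largest increases included NABP1, a single-strand DNA-binding protein gene at 2.51 times its vehicle mean, SGK1, a kinase downstream of PI3K at 2.52 times, the matrix gene MATN3 at 209.9% of it, the epithelial factor GRHL3 at 2.02 times, SHC2 at 2.11 times, BCAS1 at 1.95 times, the small heat shock protein HSPB8 at 1.92 times, RND3, which counters RHOA, at 1.84 times, GPNMB at 1.87 times and KRT80 at 1.82 times. Among non-coding genes MIR1915HG (200.2% of the vehicle mean), LINC02984 (194%) and RPL32P29 (182%) rose most. RPL32P29 is a processed copy of a ribosomal protein gene and, like NABP1, KRT80 and GPNMB, carried fractions of a read in at least 4 libraries.

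Luminal markers were mostly called higher. Of 35 luminal and epithelial markers 22 were called higher and 3 lower, against 11.4% and 28.0% of all genes, with a median of 0.18 (25 and 2 after rescaling), and of 10 measured keratins 7 rose and 1 fell (8 and 1 after rescaling). CD24, a surface glycoprotein of luminal cells, was at 439, 446, 452 and 426 CPM under abemaciclib and at 258, 261, 241 and 249 CPM under vehicle (0.80, adjusted p = 3.7e-20). KRT7 was at 171%, the epithelial factor ELF3 at 150.4%, KRT8 at 125% and KRT19 at 123% of the vehicle mean. KRT8 rose by only 0.09 after quantile normalization, still called. Secreted and apical products moved likewise: 6 of 11 mucins and secreted luminal proteins rose and 2 fell (6 and 1 after rescaling). PIP, a secreted protein of apocrine cells, was at 1231, 1251, 1283 and 1288 CPM against 730.3, 793, 747 and 737 CPM (0.75, adjusted p = 1.8e-20). CLU, a secreted chaperone, was at 170.4%, the trefoil factor TFF3 at 137% and the mucin MUC1 at 135%. Against these, AGR2, a disulfide isomerase of secretory cells, fell to 82.0% and ESRP1, an epithelial splicing factor, to 73.5%. CD24, KRT7, KRT8, KRT19 and ELF3 carried fractions of a read in at least 4 libraries.

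Of 38 genes of the estrogen receptor and its targets 16 rose (42.1%) and 9 fell (23.7%), against 11.4% and 28.0% of all genes (21 and 5 after rescaling). ESR1, the receptor itself, was at 79.5, 77.1, 81.1 and 75.5 CPM under abemaciclib and at 79.6, 71.9, 76.0 and 76.7 CPM under vehicle. Its groups overlapped and it was not called as deposited (0.04, adjusted p = 0.471), while after rescaling it was called higher by 0.13 (adjusted p = 0.0118). PGR, the progesterone receptor and a classical target, was at 895, 855, 882 and 869.5 CPM against 669, 658, 663 and 676 CPM (0.39, adjusted p = 2.0e-13). STC2, a secreted glycoprotein, was at 148% and IGFBP5, a binding protein of insulin-like growth factors, at 135%. AREG, an EGFR ligand induced by estrogen, went against them, at 28.9, 24.0, 26.9 and 23.7 CPM against 60.1, 56.6, 60.5 and 59.1 CPM (-1.16, adjusted p = 1.4e-18). MYC, a target of the receptor and a driver of growth, was at 192 ± 6.27 against 185 ± 3.40 CPM and not called as deposited (0.06, adjusted p = 0.240), but was called higher by 0.14 after rescaling. ESR1 and IGFBP5 carried fractions of a read in at least 4 libraries.

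Of 23 AP-1 and immediate early genes 8 rose and 3 fell, against 11.4% and 28.0% of all genes (10 and 1 after rescaling). DUSP1, a phosphatase that turns off MAP kinases, was at 45.4, 46.0, 45.4 and 45.7 CPM against 29.8, 25.7, 29.9 and 30.7 CPM (0.64, adjusted p = 2.3e-11). JUN was at 133%, FOSL2 at 140.0% and KLF6 at 135% of the vehicle mean, and IER5 fell to 61.6%. Of 16 genes of ERK output 6 rose (37.5%) and 7 fell (43.8%), or 7 and 5 after rescaling, with the feedback inhibitor SPRY2 at 187%. Of 21 YAP and TGF-beta targets 8 rose (38.1%) and 3 fell (14.3%), or 9 and 3 after rescaling. Beside CCN1 and CCN2, TGFB2, the ligand, was at 8.69, 8.77, 7.69 and 7.17 CPM against 3.85, 4.09, 4.75 and 3.70 CPM (0.83, adjusted p = 9.8e-07), while ID2 fell to 65.8%. ID2 carried fractions of a read in at least 4 libraries.

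Lysosomal genes were called higher more often than lower, by small steps. Of 49 genes of lysosomal membrane and hydrolases 27 were called higher and 4 lower, against 11.4% and 28.0% of all genes, with a median of 0.17, and 33 and 1 were called after rescaling. CTSD, the protease cathepsin D, was at 1063, 1016, 995 and 1031 CPM under abemaciclib and at 752, 808, 759 and 774 CPM under vehicle (0.41, SE 0.0320, adjusted p = 1.5e-12). Every treated library lay above every vehicle library. CTSD carried fractions of a read in at least 4 libraries. PSAP, the precursor of sphingolipid activators, was at 126% and GRN, the progranulin gene, at 124% of the vehicle mean. GUSB, the beta-glucuronidase gene, fell to 69.2%. Of 19 genes of the vacuolar ATPase, which acidifies the lysosome, 8 rose and none fell, with ATP6AP1 at 122%. That count was 12 after rescaling, 13 after quantile normalization and 5 without vehicle replicate 1. Of 36 autophagy genes 11 rose and 2 fell (15 and 1 after rescaling, 17 and 1 after quantile normalization), among them WIPI1 at 143% and GABARAPL1 at 135%, which act in building the autophagosome. The CLEAR element bound by TFEB, with the letters TCACGTGA, was present in 7 of 37 lysosomal windows (18.9%), against 1.79% of tested protein-coding genes. Lists that fell held it too, in 3 of 38 replication windows (7.89%) and 1 of 57 mitosis windows (1.75%).

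Interferon-stimulated genes were called higher more often than lower, by small steps. Of 59 measured, 24 were called higher (40.7%) and 5 lower (8.47%), against 11.4% and 28.0% of all genes, and 30 did not pass. Their median was 0.16, and 34 and 1 were called after rescaling. IFIT1, an antiviral RNA-binding protein gene, was at 124, 127, 132 and 133 CPM under abemaciclib and at 85.7, 80.6, 80.0 and 81.3 CPM under vehicle (0.65, SE 0.0438, adjusted p = 3.4e-14). IFI27 was at 186, 198, 198 and 203 CPM against 125, 131, 129 and 127 CPM (0.61, adjusted p = 1.3e-15). Both were apart in all libraries. Less abundant ones moved too, with IFI44L at 195%, DDX60L at 158%, SAMD9L at 163% and TRIM22 at 217% of the vehicle mean, the last at no more than 2.18 CPM in any of the 8 libraries. IRF9, a transcription factor of the response, was at 39.5 ± 0.617 against 39.1 ± 2.04 CPM and not called. Of the members that fell, HERC5, a ligase for ISG15, was at 58.0%, and OAS3, a sensor of double-stranded RNA, at 87.4%. The OAS3 call was lost after rescaling (adjusted p = 0.0996). IRF9 and OAS3 carried fractions of a read in at least 4 libraries.

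The interferon response element, read here as GAAANNGAA on either strand, was in 27 of 46 windows of interferon-stimulated genes (58.7%), against 5.44% of tested protein-coding genes and 6.88% of all promoters. The window of IFI44L, which rose most among the members with the element, is shown with its matches in capitals. It lies at chr1:78620198-78620447 on the plus strand, with matches 155 and 64 bases before the start.

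IFI44L: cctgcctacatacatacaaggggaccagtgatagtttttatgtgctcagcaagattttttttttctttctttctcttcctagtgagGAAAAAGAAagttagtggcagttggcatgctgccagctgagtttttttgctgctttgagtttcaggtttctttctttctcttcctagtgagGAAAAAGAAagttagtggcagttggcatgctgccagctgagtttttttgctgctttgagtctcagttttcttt

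The stretch around the match is repeated within the window. IFI44L was at 5.21, 4.96, 4.25 and 5.08 CPM under abemaciclib and at 2.51, 2.39, 2.96 and 2.13 CPM under vehicle (0.75, SE 0.130, adjusted p = 1.7e-05).

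Antigen presentation and NF-kappaB genes gave mixed calls. Of 21 genes of MHC class I presentation 6 rose and 5 fell, against 11.4% and 28.0% of all genes (10 and 2 after rescaling). TAPBP, which loads peptides, was at 114% of the vehicle mean, and PSMB9, a subunit of the immunoproteasome, was at 14.3, 16.3, 14.4 and 13.7 CPM against 25.8, 29.4, 24.8 and 22.8 CPM (-0.77, adjusted p = 2.4e-08). ERAP2, a peptide trimming enzyme, was at 9.84 ± 0.187 against 12.9 ± 1.31 CPM (-0.36, adjusted p = 0.0178), and was not called after rescaling (adjusted p = 0.0587) nor without vehicle replicate 1 (0.0553) or 2 (0.0604). Of 24 genes of NF-kappaB subunits and targets 5 rose and 5 fell (9 and 3 after rescaling), with the chemokine CCL28 at 161% and the adhesion molecule ICAM1 at 134%. TAPBP carried fractions of a read in at least 4 libraries.

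Of 30 genes of cholesterol synthesis and uptake 16 fell (53.3%) and 4 rose (13.3%), against 28.0% lower and 11.4% higher among all genes, with a median of -0.14 (13 fell and 5 rose after rescaling). ACAT2, which makes acetoacetyl-CoA, was at 47.4% of its vehicle mean, with no overlap (-1.05, adjusted p = 6.7e-16). EBP, a sterol isomerase, was at 54.5% and INSIG1, which holds SREBP back, at 61.5% of the vehicle mean, while HMGCS1, a synthase of the pathway, was at 114%. Of 27 genes of fatty acid synthesis and storage 10 fell (37.0%) and 4 rose (14.8%), shares near those of all genes (8 fell and 7 rose after rescaling), with the desaturases FADS1 at 61.3% and FADS2 at 58.0%. Fatty acid oxidation was evenly split, 9 and 9 (13 higher and 4 lower after rescaling), with ACAA1 at 131% and ACADVL at 125%. Of 34 genes of glycolysis and hypoxia 14 fell and 6 rose (8 and 6 after rescaling), with the phosphofructokinase PFKP at 68.5% and LDHA at 80.3%. MT2A, a metallothionein, was at 48.1, 50.7, 48.6 and 47.4 CPM against 128, 135, 130.0 and 127 CPM (-1.40, adjusted p = 1.0e-24), the largest change of the zinc and copper list, in which 4 of 18 fell and 2 rose (4 and 4 after rescaling). EBP, HMGCS1, FADS1, LDHA and MT2A carried fractions of a read in at least 4 libraries.

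As deposited, nuclear genes of respiration were called lower more often than higher, and those encoded in mitochondria higher more often than lower. Of 57 nuclear-encoded respiratory chain genes 25 fell (43.9%) and 2 rose (3.51%), against 28.0% and 11.4% of all genes, and 30 were not called. After rescaling 8 fell and 12 rose. COX8A, a subunit of cytochrome oxidase, was at 577 ± 20.5 against 749.8 ± 17.1 CPM (-0.38) and CYC1, cytochrome c1, at 338 ± 9.83 against 437 ± 11.2 CPM (-0.37), and both fell under all 3 scalings. Of 13 mRNAs encoded in mitochondria 9 rose and 1 fell, and after quantile normalization 5 rose and 4 fell. All mitochondrial genes together took 13.1 to 13.7% of reads under abemaciclib and 11.5 to 11.9% under vehicle. MT-ND4 was at 14204, 14723, 14099 and 15375 CPM against 11280.1, 11669, 12131 and 11631 CPM (0.32, adjusted p = 1.5e-10), a call lost under quantile normalization (0.05, adjusted p = 0.148). MT-ND6, the only mRNA made from the other mitochondrial strand, fell, at 25.0, 36.3, 22.1 and 42.6 CPM against 50.9, 66.4, 55.6 and 47.9 CPM (-0.83, adjusted p = 5.6e-06). The strand setting of the counting is not given, so the MT-ND6 count may include reads from the opposite strand. COX8A, MT-ND4 and MT-ND6 carried fractions of a read in at least 4 libraries.

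Of 42 ATF4 targets, the genes of the amino acid response, 14 fell (33.3%) and 8 rose (19.0%), shares near the 28.0% and 11.4% of all genes (13 and 13 after rescaling), with a median of -0.04. PHGDH, the first enzyme of serine synthesis, was at 14.2, 15.3, 14.9 and 14.7 CPM under abemaciclib and at 32.4, 35.3, 31.2 and 33.3 CPM under vehicle (-1.11, adjusted p = 1.8e-18). The amino acid transporter SLC7A5 was at 61.6%, the folate enzyme MTHFD2 at 69.9% and PSAT1, the next serine enzyme, at 72.5%. DDIT4, an inhibitor of mTORC1, was at 151%. ASNS, asparagine synthetase and a standard reporter of ATF4, was at 16.5, 14.8, 16.9 and 13.7 CPM against 17.3, 17.2, 16.6 and 16.5 CPM, with overlapping groups and no call (-0.12, adjusted p = 0.120). MTHFD2, PSAT1 and ASNS carried fractions of a read in at least 4 libraries.

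How far these effects were shared with control cells was asked in the same fit, from the drug effect in knockout cells minus that in control cells. Control cells had 3150 genes called higher (20.1%) and 4945 lower (31.6%) under abemaciclib. Of the knockout calls, 78.6% of the lower ones and 83.9% of the higher ones were called in the same direction in control cells, which is 69.8% and 47.4% of the control calls. The 2 comparisons share no libraries, but they share the fit's estimate of the spread of each gene, so their calls are not independent. The effects differed for 997 genes with a more negative effect in knockout cells (6.36%) and 760 with a more positive one (4.85%). In 28 genes the drug lowered the RNA in knockout and raised it in control cells, and in 19 it did the reverse. These counts are from CPM as deposited and were not repeated after rescaling. Some of the changes were under the 0.10 by which quantile normalization moved the knockout median. PTP4A2, for example, was at -0.09 in knockout and 0.09 in control cells, and RPL19 at 0.06 and -0.07. Among these 47 genes the largest differences were those of CAMK2B, a calcium-dependent kinase, at -1.14 and GDF15 at 1.04. The call of CAMK2B in knockout cells was lost after rescaling (adjusted p = 0.0712), while the difference between the genotypes was called under every setting tried.

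Some replication and mitosis genes fell further in knockout cells. In 18 of 45 replication genes and 26 of 65 mitosis genes the effect was more negative in knockout cells, against 6.36% of all genes, and in 1 of each it was more positive, against 4.85%. For the other 26 and 38 the test did not pass. RRM2 reached 4.14% of its vehicle level in knockout cells and 11.5% in control cells, where it was at 9.64 ± 0.331 CPM under abemaciclib and 83.8 ± 0.730 CPM under vehicle (difference -1.20, SE 0.102, adjusted p = 2.6e-10). MYBL2 reached 5.96% in knockout and 13.6% in control cells (-1.12, adjusted p = 3.2e-14). CCNE2 reached 8.54% and 22.8%, MCM10 10.3% and 25.1%, EXO1 9.93% and 28.1%, CLSPN 12.1% and 30.0%, and MKI67 6.10% and 13.5%, again knockout first and control second. By vehicle mean, 9 of 45 replication and 3 of 65 mitosis genes were higher in knockout than control cells, against 61.6% of all genes. Under vehicle CLSPN averaged 22.9 ± 1.67 CPM in knockout cells and 20.2 ± 1.44 CPM in control cells, while RRM2 was lower in knockout cells, at 69.3 against 83.8 CPM, with no overlap. The effect on E2F1 differed by -0.90 (adjusted p = 2.8e-08). CCND1 rose less in knockout cells, to 181% against 217% in control cells (-0.26, adjusted p = 0.00246), a call lost without the trend in the variance (adjusted p = 0.0528).

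**Figure D4:**
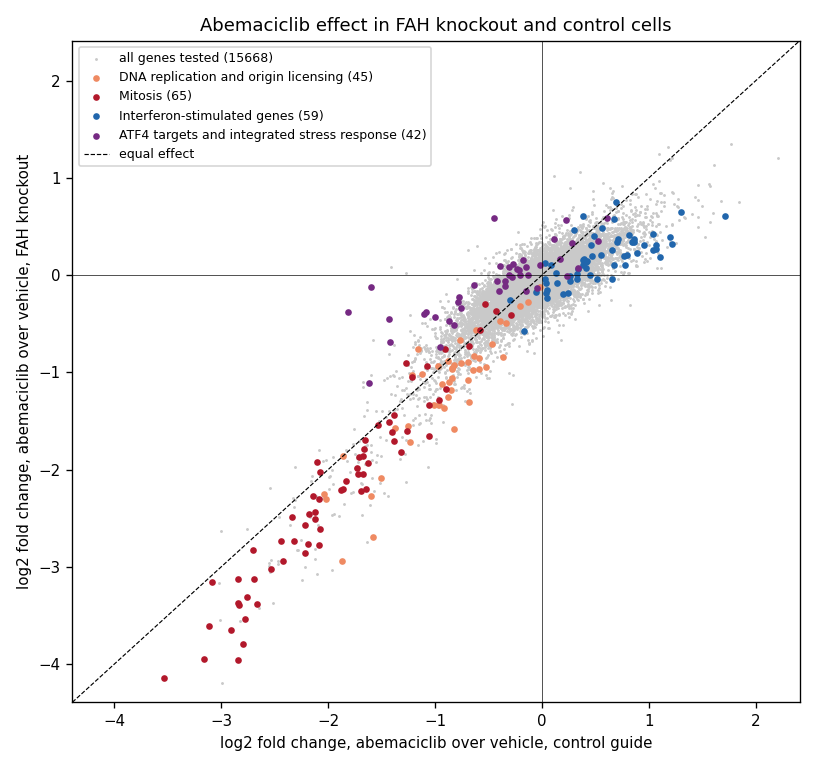
Log2 fold change of each gene under abemaciclib in FAH knockout cells (vertical) against that in control cells (horizontal), with the line of equal effects dashed; each point is a gene. Many replication and mitosis genes lie below the line at its lower end, many interferon-stimulated genes below it at the right, and many ATF4 targets above it.

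Interferon-stimulated genes were among those with a more negative effect in knockout cells. This was so in 31 of 59, against 6.36% of all genes, and in none was the effect more positive, while 28 did not pass. The list's median was 0.16 in knockout and 0.47 in control cells. Under vehicle the mean level of 59 of the 59 was higher in knockout than in control cells, against 61.6% of all genes tested. IFIT1 was at 129 ± 4.36 and 81.9 ± 2.60 CPM in knockout cells, and at 65.1 ± 2.32 and 25.8 ± 1.23 CPM in control cells (difference -0.65, adjusted p = 3.8e-09). Drug-treated control cells were thus below vehicle-treated knockout cells for IFIT1. IFI27 differed most, at 196 ± 7.35 and 128 ± 2.64 CPM in knockout cells and 247 ± 11.4 and 74.7 ± 1.03 CPM in control cells (-1.10, adjusted p = 1.6e-16). For IFI44L the effects did not differ beyond their error (0.06, SE 0.184, adjusted p = 0.894). PIP behaved like IFI27, at 168% in knockout and 359.5% in control cells (-1.10, adjusted p = 7.2e-19).

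For ATF4 targets the order was the reverse. In 28 of 42 the effect was more positive in knockout cells, against 4.85% of all genes, and in 1 more negative, and the list's median was -0.04 in knockout and -0.32 in control cells. ASNS had the largest positive difference of all genes named by rule, 1.47 (SE 0.0891, adjusted p = 8.4e-14). It was at 15.5 ± 1.51 CPM under abemaciclib and 16.9 ± 0.409 CPM under vehicle in knockout cells, and at 19.1 ± 0.873 and 59.6 ± 2.49 CPM in control cells. SLC7A11, the cystine transporter, was at 6.71 ± 1.06 and 8.94 ± 0.124 CPM in knockout cells, and at 7.51 ± 0.775 and 28.9 ± 0.783 CPM in control cells (1.44, adjusted p = 3.6e-10). PSAT1 was at 72.5% of its vehicle level in knockout cells and at 36.3% in control cells (0.98), with vehicle levels of 26.5 ± 1.40 CPM in knockout and 69.6 ± 2.95 CPM in control cells. In all 3 the group that stood apart was vehicle-treated control cells, while the other 3 groups lay within a narrow range. CCN2 showed another pattern, at 9.71 ± 0.973 CPM in abemaciclib-treated knockout cells and at 3.58 to 4.86 CPM on average in the other groups (0.70, adjusted p = 0.00244).

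**Figure D5:**
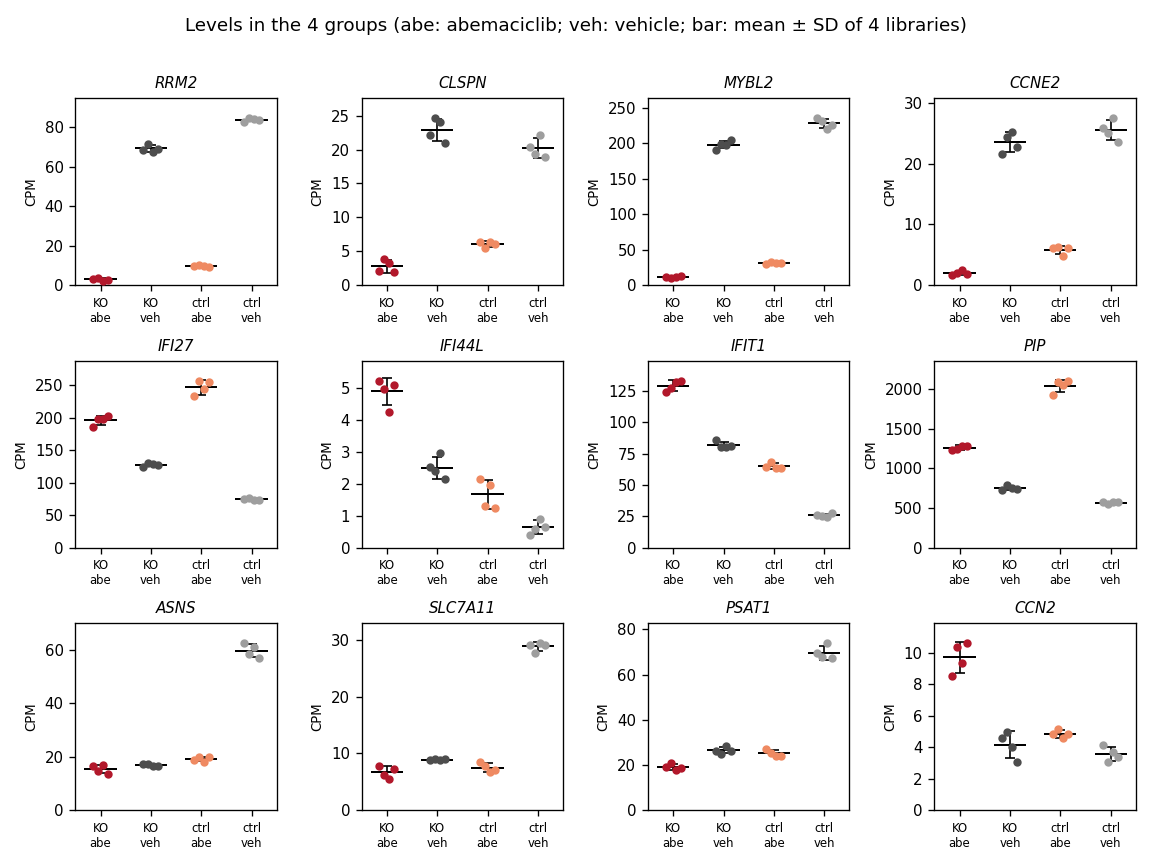
CPM of 12 genes in the 4 groups, knockout cells left of control cells and abemaciclib left of vehicle within each; points are libraries and bars give the mean ± SD of 4. For ASNS, SLC7A11 and PSAT1 vehicle-treated control cells stand above the other groups, and for CCN2 abemaciclib-treated knockout cells do.

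Genes of translation and respiration also differed in this test. Of 78 ribosomal protein genes 49 had a more positive effect in knockout cells and none a more negative one. Of 57 nuclear-encoded respiratory chain genes the counts were 27 and none. Among all genes the effect was more positive in 4.85% and more negative in 6.36%. After quantile normalization the counts were 29 and 1 for the ribosomal proteins and 14 and 2 for the respiratory chain. In control cells the ribosomal proteins took 15.7% ± 0.463 of reads under abemaciclib and 17.5% ± 0.224 under vehicle, against 15.2% ± 0.172 and 15.1% ± 0.129 in knockout cells (SD, n = 4 each). The drug effect on PGR was a little smaller in knockout cells (-0.15, adjusted p = 0.0127; 0.109 without the trend) and that on MYC more positive (0.28, adjusted p = 3.5e-04), since MYC fell to 85.7% of its vehicle level in control cells.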

How the data were processed

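Per the labels' protocols, a commercial service extracted RNA for the 16 libraries, made cDNA and tagmented it. The authors deposited 1 table of CPM (counts per 1000000 assigned reads), in which each library sums to 1000000 with the 92 ERCC spike-in rows. STAR 2.7.11, SAMtools 1.22.1, featureCounts of Subread 2.1.1, MultiQC 1.32 and GRCh38 are the names and versions in the submitters' processing notes. No source used here gives the strand setting, the annotation release or how shared reads were counted. The smallest step of each column gave the depth (0.0836 to 0.0997 CPM per read in the knockout libraries). Within a tolerance of 0.02, 70.2 to 71.8% of nonzero values came out as whole reads, so no count test was run. Genes named by the rule below that had fractions of a read in at least 4 of the 8 knockout libraries are named as uncertain. Of all genes tested, 5111 had such fractions.

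ERCC rows were left out, 51 symbols altered by spreadsheet software were restored by gene ID, and genes of at least 1 CPM in 4 of the 8 knockout libraries were fitted on log2(CPM + 1) with limma 3.58.1 in R 4.3.3 (trend, 4 group means, all 16 libraries, Benjamini-Hochberg over 15668 genes). The difference between genotypes is the interaction contrast of this fit. FAH was also tested by exact permutation over libraries (scipy 1.17.1). The code of the fit was also run on simulated data with known changes, as many up as down. That run cannot say which scaling is right for these data. The text names the 15 largest increases and decreases among protein-coding genes of at least 5 CPM without overlap, up to 6 leading and 3 opposing called members of each list, the 10 largest differences between genotypes in each direction, 3 non-coding genes in each direction and a list of pathway genes; a few items that this rule gives are not reported here. The comparison and the gene lists were chosen with earlier results of these data known. Alternatives were pseudocounts of 0.1 and 5, other filters, median-ratio and quantile scaling, no trend, voom, the knockout libraries alone, a replicate block and leaving out each library. Promoter windows came from RefSeq (GRCh38.p14). The number of reads limits low genes, and intervals between libraries cover only the spread among these libraries.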

Additional observations from a re-analysis of the deposited data

Results flagged for a closer look

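In 11 of 334 groups of 4 knockout libraries 1 library lay far from the other 3, by Dixon's test at the 95% level. Chance flags about 1 in 20 groups. Under abemaciclib the stray libraries were high for CCNE1 (6.79 CPM), CDK2 (36.8 CPM), GUSB (70.2 CPM) and TAPBP (148 CPM), and low for RRM1 (17.9 CPM), FANCI (3.65 CPM) and FBL (156 CPM). Under vehicle they were low for TK1 (114 CPM), H2AX (281 CPM), OAS3 (87.8 CPM) and DUSP1 (25.7 CPM). For OAS3 this library reached into the range of the abemaciclib libraries, and for the other 10 genes the treatments still did not overlap.

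Among genes named for the largest genotype differences or as pathway genes, 34 differed in their abemaciclib effect by the interaction test of limma. Other named genes that differed, such as IFIT1 and CDT1, are not listed here. The values that follow are the knockout effect minus the control effect on the log2(CPM + 1) scale. Of these 34, the cell cycle genes with a more negative effect in knockout cells were RRM2 (-1.20), MYBL2 (-1.12), CLSPN (-1.11), EXO1 (-1.10), MCM10 (-1.07), CCNE2 (-1.07), MKI67 (-1.0), E2F1 (-0.90), TK1 (-0.89), TYMS (-0.86), CDKN2C (-0.80), CDK1 (-0.72), RBL1 (-0.57), CCNA2 (-0.49), CCND3 (-0.39), DNMT1 (-0.27) and CCND1 (-0.26). Among the 34, the call was lost without the trend in the variance for CCND1 (adjusted p = 0.0528), CCNA2 (0.0559), PGR (0.109) and IRF9 (0.0648). With no filter on low values it was lost for CCNA2 (0.0868) and IRF9 (0.092), and with a pseudocount of 5 CCNA2 was at -0.17 (0.257). Of the cell cycle genes, CCND1 rose under the drug in both genotypes, and the rest fell in both.

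Those of the 34 outside the cell cycle with a more negative effect in knockout cells were CAMK2B (-1.14), MDGA1 (-1.13), IFI27 (-1.10), PIP (-1.10), IRF9 (-0.31) and PGR (-0.15). MDGA1, an adhesion gene of the immunoglobulin family, was at 10.3 ± 0.767 CPM under abemaciclib and 7.67 ± 1.37 CPM under vehicle in knockout cells, against 319% of the vehicle level in control cells.

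A more positive effect in knockout cells was found, among the 34, for ASNS (1.47), SLC7A11 (1.44), GDF15 (1.04), PSAT1 (0.98), XAGE2 (0.95), TP53I3 (0.91), SLC7A5 (0.73), PCK2 (0.71), CCN2 (0.70), OLR1 (0.70) and MYC (0.28). TP53I3 was at 62.8% of its vehicle level in knockout cells and at 33.3% in control cells, and SLC7A5 at 61.6% and 37.1%.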

How the results depend on the processing

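Scaling moved the counts of calls most. Knockout calls were 3142 higher and 2870 lower after median-ratio rescaling, and 3586 higher and 2706 lower after quantile normalization. The difference between genotypes gave 506 more positive genes without the trend and 601 more negative genes with no filter on low values. The causes were not tested. Leaving out 1 library at a time gave 1573 to 1652 higher and 3962 to 4116 lower calls, and 625 to 795 more positive and 821 to 1106 more negative differences. With the replicate number as a block the counts were 1774 higher, 4382 lower, 748 more positive and 1008 more negative. Same-numbered knockout libraries correlated at 0.012, 0.0771, -0.0223 and 0.00384 in their deviations, and differently numbered ones at -0.0381 to 0.0436. The value of replicate 2 was thus the highest, but all were near 0. Such correlations cannot show whether same-numbered libraries shared a culture. No call of a named gene changed with the block.

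Of 167 named genes, 7 lost their call under some alternative and 5 gained one. RBL2, not called, was at 0.03 after rescaling and 0.06 after quantile normalization, against -0.06 as deposited. IRF9, not called, was at -0.02 without vehicle replicate 2, against 0.01. FAH was called lower with a pseudocount of 0.1 (-0.21, adjusted p = 0.048) and without abemaciclib replicate 3 (-0.25, adjusted p = 0.0116). ASNS was called lower without that same library (-0.17, adjusted p = 0.0474). Genes at a few CPM rest on few reads, and small changes in them were not detectable at this depth.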

Other observations

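Several gene groups not described above changed by small amounts in abemaciclib-treated FAH knockout cells. Of 28 genes of integrins, laminins and matrix 12 rose and 1 fell (17 and 1 after rescaling), and of 24 genes of adhesion and junctions 10 rose and 2 fell (15 and none after rescaling), against 11.4% higher and 28.0% lower among all genes. Of 16 genes of iron handling 9 rose and 3 fell (10 and 1 after rescaling), with a median of 0.13. Of 20 genes of the unfolded protein response 8 rose and 1 fell, with 12 and 1 after rescaling and 5 higher without the trend in the variance. Genes of NRF2, glutathione and antioxidant defence went the other way, with 4 of 35 higher and 18 lower, but after rescaling 8 were higher and 7 lower.

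Of 10 measured genes of phenylalanine and tyrosine breakdown, the pathway that FAH ends, 2 rose and 2 fell under abemaciclib, against 11.4% and 28.0% of all genes, with a median of -0.01. Only 1 was called higher with the replicate block, without the trend, with no filter, or without abemaciclib or vehicle replicate 1, 2 or 4, left out singly. Of 29 apoptosis regulators 3 rose (10.3%) and 9 fell (31.0%), and of 16 clock genes 2 rose (12.5%) and 4 fell (25.0%), shares near those of all genes. The long nuclear RNAs NEAT1 and MALAT1, picked out as a check of RNA makeup, took 1.86 to 2.21% of reads under abemaciclib and 1.49 to 1.87% under vehicle. ERCC rows summed to 3.06 to 4.99 CPM under abemaciclib and 4.93 to 6.28 CPM under vehicle.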
